A study of Homo sapiens with 2 samples.

Results

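The 10 genes MLLT3, FOCAD, HACD4, KLHL9, MTAP, CDKN2A, CDKN2B, DMRTA1, ELAVL2 and CAAP1, named here in their order along chromosome 9, stand for the 9p21 segment that is often deleted in squamous carcinoma, and are 10 of the 19775 genes with a probe set on the array. They were taken as a list of neighbours, chosen by their signals and CD90+ over CD90- ratios on these same arrays, and every probe set annotated to one of them was used, 28 in all. Their ratios are therefore a description. The material was total RNA of CD90+ cells and of CD90- cells, both sorted by flow cytometry from KYSE-140, an established human line of esophageal squamous carcinoma, with 1 Affymetrix U133 Plus 2.0 array each. The labels name no treatment and no engineered allele for either fraction. With 1 array per fraction there was no replicate error and no test, and each fold difference describes these 2 RNA samples.

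The 9p21 segment holds genes of unrelated function that are often lost together. CDKN2A encodes INK4a, an inhibitor of the cyclin D kinases CDK4 and CDK6, and from another first exon ARF, an inhibitor of the p53 ligase MDM2. CDKN2B encodes the related kinase inhibitor INK4b. MTAP, their neighbour, cleaves methylthioadenosine, a by-product of polyamine synthesis, so that methionine and adenine are recovered, and cells without it accumulate methylthioadenosine, which inhibits the arginine methyltransferase PRMT5. On the telomere side lie type I interferon genes with KLHL9 among them, then FOCAD and MLLT3, and on the centromere side DMRTA1, ELAVL2 and CAAP1.

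MLLT3, FOCAD, KLHL9 and MTAP, which with HACD4 make up the telomere end of the list, were lower in CD90+ cells by 2.12-fold to 2.67-fold, while CAAP1 at the centromere end differed by 1.01-fold. A gene was represented by its brightest probe set and called measured when that probe set reached a floor of 71.6 signal units, the common median of the arrays, on at least 1 array. By that rule 5 of the 10 genes were measured. Of these, 4 were lower by 2-fold or more and 0 higher by as much. Among all 12466 measured genes, 218 (1.75%) were that much lower and 2.47% that much higher. Of the list, the same 4 genes were the only ones past 1.5-fold lower, a size that 6.76% of all measured genes reached. The median log2 ratio, CD90+ over CD90-, was -1.20 over the 5 measured genes and 0.01 over all measured genes. In bulk RNA, fewer cells with a transcript and less of it per cell cannot be told apart.

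The sequences before the transcription starts of the genes with lower signal and of CDKN2A are shown side by side. CDKN2A has separate starts for its products. The sequences are the 250 bases before each start in RefSeq, build GRCh38.p14, written 5′ to 3′ on the strand of the gene. Capitals mark the GC box, searched as GGGCGG on either strand. They also mark the CCAAT box, searched by the letters of its name. The TATA box, also in capitals, was searched with the letters TATAAA, and overlapping matches were counted separately, on both strands for every motif.
MLLT3, chr9:20622500-20622749, minus strand: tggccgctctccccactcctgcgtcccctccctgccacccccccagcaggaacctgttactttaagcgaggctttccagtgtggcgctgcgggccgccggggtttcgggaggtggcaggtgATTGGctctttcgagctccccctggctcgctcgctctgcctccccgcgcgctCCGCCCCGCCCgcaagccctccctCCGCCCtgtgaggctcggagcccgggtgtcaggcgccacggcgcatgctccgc
FOCAD, chr9:20684009-20684258, plus strand: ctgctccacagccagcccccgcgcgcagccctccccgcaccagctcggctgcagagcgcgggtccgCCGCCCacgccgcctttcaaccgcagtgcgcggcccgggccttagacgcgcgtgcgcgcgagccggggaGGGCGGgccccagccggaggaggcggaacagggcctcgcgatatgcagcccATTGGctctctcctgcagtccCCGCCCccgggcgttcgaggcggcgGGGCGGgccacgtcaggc
KLHL9, chr9:21335405-21335654, minus strand: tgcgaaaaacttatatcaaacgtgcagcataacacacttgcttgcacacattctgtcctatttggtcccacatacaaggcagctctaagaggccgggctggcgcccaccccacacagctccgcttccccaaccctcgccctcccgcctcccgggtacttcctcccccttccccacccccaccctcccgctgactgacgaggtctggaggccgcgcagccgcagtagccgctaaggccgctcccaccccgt
MTAP, chr9:21802386-21802635, plus strand: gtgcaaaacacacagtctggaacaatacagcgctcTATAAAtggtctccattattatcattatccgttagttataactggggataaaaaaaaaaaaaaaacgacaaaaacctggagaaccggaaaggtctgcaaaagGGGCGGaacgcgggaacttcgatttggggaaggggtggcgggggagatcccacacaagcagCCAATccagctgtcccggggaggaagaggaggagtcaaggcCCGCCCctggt
CDKN2A, ARF start, chr9:21995325-21995574, minus strand: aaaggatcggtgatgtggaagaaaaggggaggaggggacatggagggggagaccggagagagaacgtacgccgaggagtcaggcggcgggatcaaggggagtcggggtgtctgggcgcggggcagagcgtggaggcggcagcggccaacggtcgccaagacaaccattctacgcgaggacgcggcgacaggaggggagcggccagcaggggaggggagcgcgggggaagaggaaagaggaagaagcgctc
CDKN2A, INK4a start, chr9:21974858-21975107, minus strand: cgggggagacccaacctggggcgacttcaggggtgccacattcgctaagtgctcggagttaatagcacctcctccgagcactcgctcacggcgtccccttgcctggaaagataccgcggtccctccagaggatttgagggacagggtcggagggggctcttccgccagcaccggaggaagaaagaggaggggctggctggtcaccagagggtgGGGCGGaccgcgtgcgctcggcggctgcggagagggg

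The genes with lower signal did not have a common set of these motifs. The GC box occurred 3 times before MLLT3, 4 times before FOCAD, 2 times before MTAP and 0 times before KLHL9. A CCAAT box stood before MLLT3, FOCAD and MTAP, and MTAP alone of these 4 had the letters of the TATA box. That match lies near the end of the window farthest from the start. The search took letters anywhere in the window, and function of the matches was not tested. Over all 35116 promoter windows of the same length in the table, 42.6% held the GC box, 32.0% the CCAAT box and 10.7% the TATA box. The share of G and C was 72.0% for MLLT3, 77.6% for FOCAD, 62.8% for KLHL9 and 50% for MTAP, beside a median of 58.0% over all windows. Of the 10 genes 9 had a window in the table, and CAAP1 was the other.

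MTAP was read by 6 probe sets, 5 of them above the floor, and all 5 were lower in CD90+ cells. The probe set that stood for the gene, 231984_at, gave a signal of 1027 in CD90+ and 2505 in CD90- cells, which is 2.44-fold lower. The largest difference was on 204956_at, with 841 in CD90+ and 2570 in CD90- cells, or 3.06-fold. Thus the bright probe sets of this enzyme of methionine salvage differed in size but not in direction. Probe set 216685_s_at read 562 in CD90+ and 1377 in CD90- cells (2.45-fold), and 211363_s_at read 331 in CD90+ and 727 in CD90- cells (2.19-fold). The dim 211364_at read 80.5 in CD90+ and 108 in CD90- cells, 1.34-fold lower, and 217134_at stayed under the floor on both arrays.

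FOCAD, or focadhesin, is a protein of focal adhesions that also stabilises the SKI complex of RNA decay. By the probe set that stood for each gene, it had the largest difference of the measured listed genes. Single probe sets of KLHL9, MLLT3 and MTAP differed by more. Probe set 218503_at of FOCAD read 1686 in CD90+ and 4493 in CD90- cells, 2.67-fold lower. The other, 232875_at, read 136 in CD90+ and 312 in CD90- cells, 2.30-fold lower. Both probe sets of the gene were thus beyond 2-fold in the same direction.

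KLHL9, a substrate adaptor of the CUL3 ubiquitin ligase that acts on Aurora B in mitosis, was lower on each of its 3 measured probe sets. The brightest, 213233_s_at, gave 3015 in CD90+ and 6949.9 in CD90- cells, which is 2.31-fold lower. Probe set 213117_at read 819 in CD90+ and 1655 in CD90- cells, the smallest at 2.02-fold, and 233197_at read 93.6 in CD90+ and 306 in CD90- cells, the largest at 3.27-fold. A further probe set of the class prone to cross-hybridisation, 237123_x_at, was under the floor on both arrays.

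MLLT3, a reader of acylated histones in the super elongation complex and a fusion partner of KMT2A in leukaemia, was lower on all of its 3 probe sets. Probe set 204918_s_at read 414 in CD90+ and 876 in CD90- cells, 2.12-fold lower, and 204917_s_at read 379 in CD90+ and 793 in CD90- cells, 2.09-fold lower. The remaining one, 1569652_at, read 131 in CD90+ and 425 in CD90- cells, 3.23-fold lower. Both _s_at probe sets gave nearly the same ratio, with a smaller difference than 1569652_at.

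**Figure D1:**
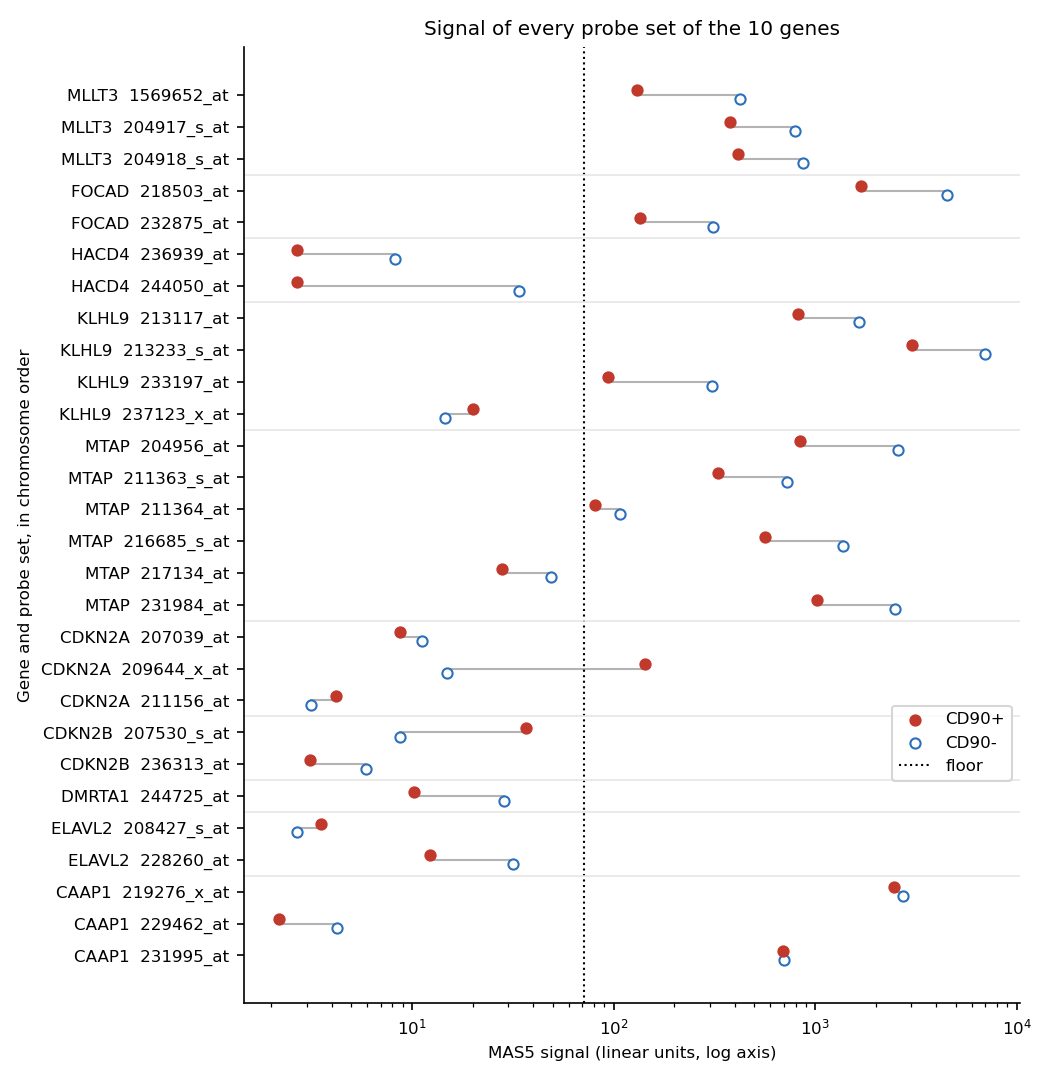
Signal of each of the 28 probe sets in CD90+ (filled) and CD90- cells (open), 1 array each, on a log axis, with the floor of 71.6 as a dotted line. All 13 measured probe sets of MLLT3, FOCAD, KLHL9 and MTAP lie further left in CD90+ cells, both measured CAAP1 pairs nearly coincide, and HACD4, CDKN2B, DMRTA1 and ELAVL2 lie left of the floor on both arrays.

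The sizes of the difference in these 4 genes are given by the probe set that stood for each. In order of log2 ratio they were FOCAD at -1.41, MTAP at -1.29, KLHL9 at -1.20 and MLLT3 at -1.08. Neighbours in that order differed by 0.13, 0.08 and 0.12, and the whole range was 0.33. The genes were kept for passing 2-fold and then put in order, so small gaps are partly built in. No likeness in size is read from them. The pooled SD between measured probe sets of 1 gene was 0.31 over 6188 genes. That SD covers differences between probe sets and not between sorts. Of the 16 measured probe sets of the listed genes 12 were at least 2-fold lower, beside 1.56% of all measured probe sets. The others were 1 of MTAP, those of CAAP1 (-0.02 and -0.14) and 1 of CDKN2A (at least 0.997). The 4 genes were singled out by the ratio of the probe set that stood for each, so those were lower by choice. Of their 13 measured probe sets all were below 0 in log2 ratio. The 12 were those of the 4 genes that reached at least 4 times the floor on the brighter array, from 2.02-fold to 3.27-fold lower. Both CAAP1 probe sets were also that bright. Of all probe sets that bright 1.46% were at least 2-fold lower.

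**Figure D2:**
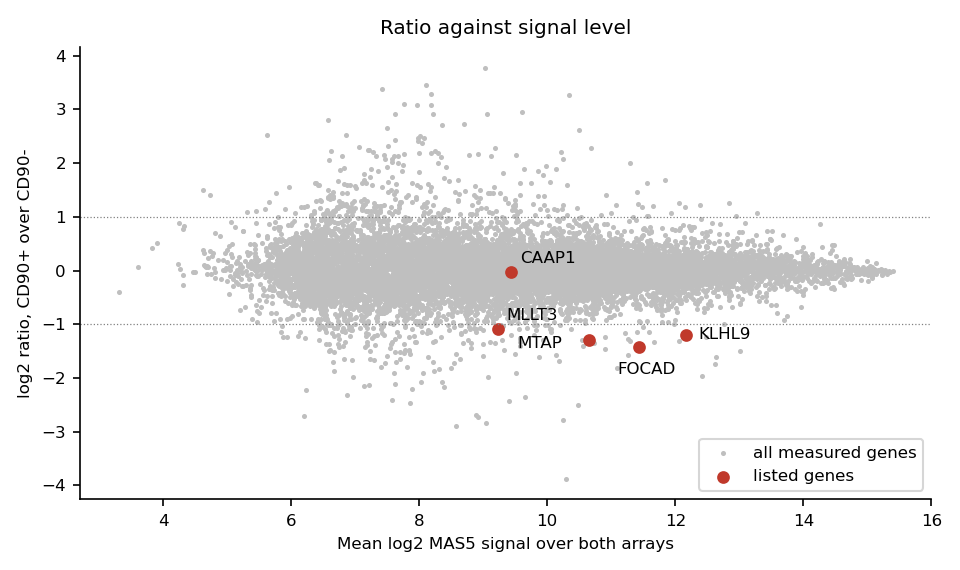
Log2 ratio, CD90+ over CD90-, against mean log2 signal for all 12466 measured genes (grey) and the 5 measured listed genes (red), with dotted lines at 2-fold. MLLT3, MTAP, KLHL9 and FOCAD lie between -1.08 and -1.41, and CAAP1 lies at -0.02.

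CDKN2A and CDKN2B, the cell cycle inhibitors of the segment, had no measured signal by the probe set that stood for each. For CDKN2A, 207039_at read 8.75 in CD90+ and 11.2 in CD90- cells and 211156_at read 4.17 in CD90+ and 3.14 in CD90- cells. The exception was 209644_x_at, with 143 in CD90+ and 14.9 in CD90- cells, higher by at least 0.997 in log2 ratio. The CD90- value was under the floor, so this is a lower bound that does not place the probe set on either side of 2-fold. This probe set belongs to the class prone to cross-hybridisation, which represented a gene only where it had no other, and its direction was opposite to that of MTAP next door. For CDKN2B, 207530_s_at read 36.8 in CD90+ and 8.72 in CD90- cells, and 236313_at read 3.12 in CD90+ and 5.91 in CD90- cells. All 4 values are under the floor, so they have no order. Of the antisense transcripts, singled out after their values were seen, CDKN2A-AS1 (6.79 in CD90+ and 8.60 in CD90- cells) and CDKN2B-AS1 (24.7 in CD90+ and 26.5 in CD90- cells) were also under it on both arrays. A reading under the floor is not a proof that a transcript was absent.

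The other listed genes without measured signal were HACD4, DMRTA1 and ELAVL2. HACD4, a dehydratase of very long chain fatty acid elongation that lies between FOCAD and the interferon cluster, read 2.69 in CD90+ and 34.0 in CD90- cells on 244050_at, and 2.69 in CD90+ and 8.25 in CD90- cells on 236939_at. DMRTA1, a transcription factor with a DM domain, read 10.3 in CD90+ and 28.5 in CD90- cells. ELAVL2, an RNA-binding protein of neurons, read 12.2 in CD90+ and 31.7 in CD90- cells on 228260_at, and 3.52 in CD90+ and 2.69 in CD90- cells on 208427_s_at. No fold is given for these genes, since every value was under the floor.

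CAAP1, an inhibitor of caspase activation and the listed gene nearest the centromere, differed by 1.10-fold or less on both of its measured probe sets. Probe set 231995_at read 691 in CD90+ and 700 in CD90- cells, and 219276_x_at read 2475 in CD90+ and 2718 in CD90- cells, 1.10-fold lower. Its other probe set, 229462_at, was under the floor on both arrays. The log2 ratio of CAAP1, -0.02, differed from that of MTAP, -1.29, by more than the SD of 0.31 between probe sets, and no gene between MTAP and CAAP1 was measured by the probe set that stood for it.

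Of the measured unlisted genes within the segment, MIR31HG and IFNE were also at least 2-fold lower in CD90+ cells. RefSeq places 91 genes between MLLT3 and CAAP1, these included, of which 28 code for protein. Besides the listed genes 19 had a probe set, and 4 of these were measured. MIR31HG, the host transcript of miR-31, read 730 in CD90+ and 1562 in CD90- cells, 2.14-fold lower. IFNE, an epithelial type I interferon, read 67.7 in CD90+ and 226 in CD90- cells, at least 3.16-fold lower. IFNA17 read 81.9 in CD90+ and 122 in CD90- cells, and IFNA10 read 10.6 in CD90+ and 73.4 in CD90- cells, where the CD90+ value was under the floor and the CD90- value just above it, so that its log2 ratio of -0.04 is only a bound. IFNA genes are near-identical copies, and both are read by probe sets prone to cross-hybridisation. The other 11 of 14 interferon genes with a probe set, were under the floor on both arrays. TUSC1, which lies between ELAVL2 and CAAP1 and was singled out after its value was seen, read 24.97 in CD90+ and 24.97 in CD90- cells, also under it.

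Genes of miRNAs lie inside 2 of the transcripts that were lower, and their mature sequences are shown because the array reads the host and not the miRNA. The span of MIR31HG holds MIR31, and the span of FOCAD holds MIR491. Capitals mark the seed, bases 2 to 8, and the sequences are those of RefSeq, build GRCh38.p14.
hsa-miR-31-5p, chr9:21512158-21512178, minus strand: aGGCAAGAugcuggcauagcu
hsa-miR-491-5p, chr9:20716120-20716141, plus strand: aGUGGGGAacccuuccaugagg
The seeds differ. Levels of these miRNAs were not analysed here.

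The nearest measured genes on both sides of the segment lay within 2-fold. ACER2, an alkaline ceramidase and the nearest measured gene on the telomere side of MLLT3, read 199 in CD90+ and 118 in CD90- cells, 1.68-fold higher. RPS6, a ribosomal protein, read 37942 in CD90+ and 34470 in CD90- cells, and DENND4C, a Rab exchange factor, 827 in CD90+ and 759 in CD90- cells. By the probe set that stood for each, all 10 measured genes nearest on that side had log2 ratios above 0, from 0.04 to 0.86 with a median of 0.27. Single measured probe sets of PLIN2 (-1.30, of the _x_at class), CNTLN (-0.56) and DENND4C (-0.37) were below 0. Those of PLIN2 and DENND4C are bounds set by the floor. The remaining measured probe sets of the 10 genes were above 0. On the centromere side PLAA, a ubiquitin-binding protein, read 2035 in CD90+ and 2293 in CD90- cells, IFT74, of intraflagellar transport, 772 in CD90+ and 681 in CD90- cells, and the pseudogene REXO6P 100.04 in CD90+ and 88.0 in CD90- cells. The 10 measured genes nearest on the centromere side had a median of 0.0049 and ran from -1.38 to 0.38. LINGO2, a neuronal membrane protein singled out after its value was seen, was the 1 of these 10 beyond 2-fold, at 134 in CD90+ and 348 in CD90- cells.

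**Figure D3:**
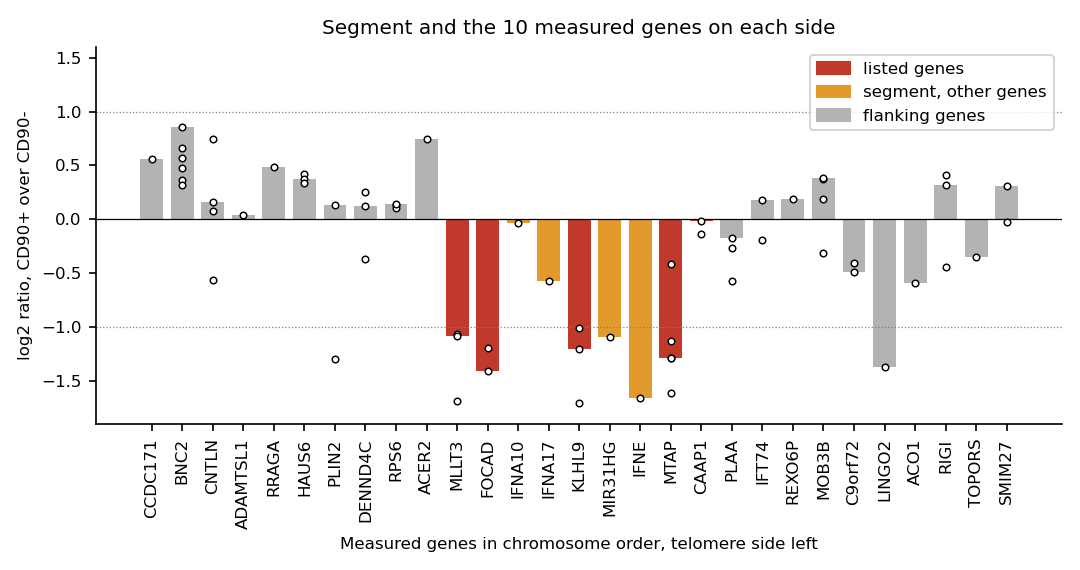
Log2 ratio, CD90+ over CD90-, of the representing probe set (bars) and of every measured probe set (circles) for the measured genes of the segment and 10 measured genes on each side, in chromosome order, with dotted lines at 2-fold. Bars of MLLT3, FOCAD, KLHL9, MIR31HG, IFNE and MTAP pass the lower line, as does that of LINGO2 on the centromere side. Those from CCDC171 to ACER2 on the left are above 0, and of the 10 on the right 5 are above and 5 below.

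Along the whole of chromosome 9 the outer genes of the short arm were mostly higher in CD90+ cells and those of the segment lower. The 46 measured genes of 9p between MLLT3 and the telomere had a median log2 ratio of 0.43, with 44 above 0, 5 past 2-fold higher and 0 past 2-fold lower. The 9 measured genes of the segment had a median of -1.10, all below 0, with 6 at least 2-fold lower and with IFNE and IFNA10 at their bounds. The 74 between CAAP1 and the centromere had a median of -0.12, with 2 at least 2-fold lower, and the 402 of 9q a median of 0.06. Over the 531 measured genes of the chromosome the median was 0.06. Of all 12466 measured genes 6384 were above 0 and 6082 below, with 1.75% at least 2-fold lower and 2.47% at least 2-fold higher. These medians describe genes of the same 2 arrays, which are not replicates.

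**Figure D4:**
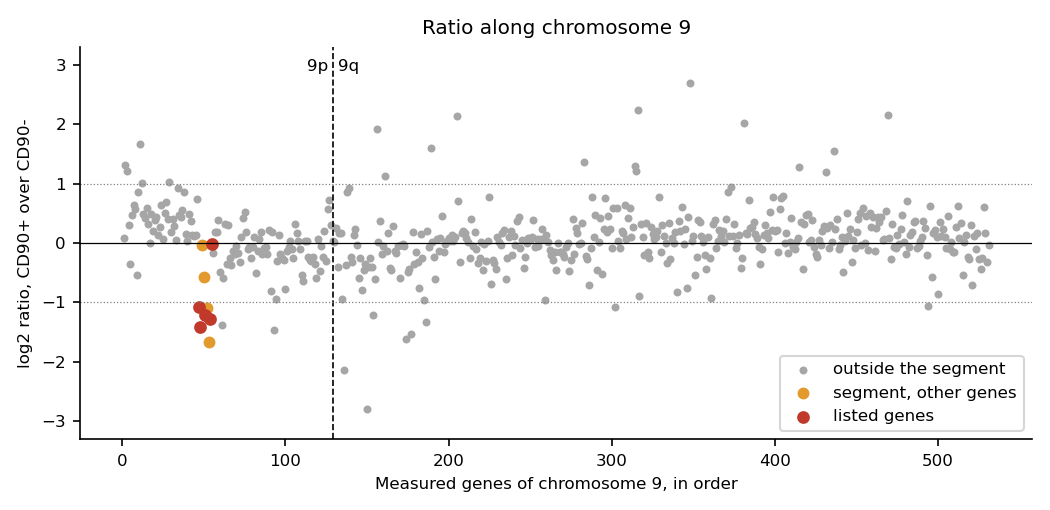
Log2 ratio, CD90+ over CD90-, of the 531 measured genes of chromosome 9 in order, with the listed genes in red, other genes of the segment in orange and the arms parted by a dashed line. Genes left of the segment lie mostly above 0, and 6 genes of the segment lie below the dotted 2-fold line.

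Among genes above a cut on brightness, the row of neighbours with lower signal was the longest of its kind on these arrays. Among the 8964 genes with a known chromosome whose brighter array reached at least 4 times the floor, MLLT3, FOCAD, KLHL9, MIR31HG and MTAP followed each other, 5 genes in a row at least 2-fold lower in CD90+ cells. The cut leaves out dimmer measured genes that lie among them. IFNA10 (log2 ratio -0.04, a bound) and IFNA17 (-0.57) lie between FOCAD and KLHL9 and were not 2-fold lower, so without the cut the row is broken there. IFNE, between MIR31HG and MTAP, was at least 2-fold lower. At that brightness 1.62% of genes were at least 2-fold lower. Elsewhere the longest such row, lower or higher, was 3 genes. Rows of 3 lower genes were found 2 times, KCNS3, TTC32 and WDR35 on chromosome 2 and the related SPRR1A, SPRR3 and SPRR1B on chromosome 1, and a row of 3 higher genes 1 time, IFITM2, IFITM1 and IFITM3 on chromosome 11. This count was added after the ratios were seen, and the listed genes were chosen by the same ratios, so the row is a description.

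The partner and pathway lists are given as counts, beside the shares of all measured genes at least 2-fold lower (1.75%) and higher (2.47%), and at their sizes counts of 0 or 1 do not set a list apart from other genes. Of 19 measured partners of INK4a and INK4b in the RB pathway 0 were 2-fold lower or more and 1 was 2-fold higher or more, with 18 between and a median of 0.01. The 1 was CDKN1C, a CIP/KIP kinase inhibitor, at 1518 in CD90+ and 648 in CD90- cells, 2.34-fold higher on the brightest of 4 probe sets whose log2 ratios ran from 0.60 to 1.23. Values chosen after they were seen were 9636 in CD90+ and 10118 in CD90- cells for the kinase CDK4, 4891 in CD90+ and 5687 in CD90- cells for the pocket protein RB1, and 5561 in CD90+ and 3299.6 in CD90- cells for cyclin D1 (CCND1). For the ARF and p53 axis 0 of 7 measured genes were beyond 2-fold, with a median of 0.18. There the ARF-binding nucleolar protein NPM1 read 32004 in CD90+ and 33152 in CD90- cells. MDM2 read 3482 in CD90+ and 3070 in CD90- cells on the probe set that stood for it. The 5 measured probe sets of MDM2 ran in log2 ratio from -1.002 to 0.18, so the lowest was past 2-fold lower.

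Around MTAP, the methionine salvage and polyamine list had 1 of 16 measured genes at least 2-fold lower, MTAP itself, and none was higher by as much, with a median of -0.02. The salvage enzymes after MTAP, singled out after their values were seen, had log2 ratios of -0.30 for MRI1, -0.06 for APIP, 0.15 for ENOPH1 and 0.24 for ADI1. Apart from MTAP, the polyamine enzymes SAT1 and ODC1, also singled out so, came near 2-fold by the probe set that stood for each. SAT1, a polyamine acetyltransferase, read 4928 in CD90+ and 9852 in CD90- cells. Its 3 measured probe sets ran in log2 ratio from -0.999, the one printed, to -0.44. ODC1, ornithine decarboxylase, read 10214 in CD90+ and 18471 in CD90- cells. The PRMT5 methylosome had 0 of 5 genes beyond 2-fold and a median of 0.06, with PRMT5 at 4622 in CD90+ and 5639 in CD90- cells and its subunit CLNS1A at 8905 in CD90+ and 8563 in CD90- cells.

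For partners of the other listed genes the counts are again to be read against those shares. The CUL3 and KLHL9 list had 0 of 6 genes beyond 2-fold, with a median of -0.04. RBX1, the RING subunit, read 13268 in CD90+ and 13946 in CD90- cells, and CUL3 read 4248 in CD90+ and 4949 in CD90- cells. The SKI complex list had 0 of 4, with a median of -0.09, SKIC8 at 6710 in CD90+ and 8072 in CD90- cells and the scaffold SKIC3 at 3263 in CD90+ and 3487 in CD90- cells. Very long chain fatty acid elongation had 0 of 9 and a median of -0.03, and the paralogues of HACD4 in it read 10644 in CD90+ and 10887 in CD90- cells for HACD3 and 7907 in CD90+ and 7125 in CD90- cells for HACD2. The super elongation complex had 1 of 13 past 2-fold higher and 0 past 2-fold lower, with a median of 0.07. The 1 was ELL3, an elongation factor, at 269 in CD90+ and 126 in CD90- cells (2.14-fold), while its other measured probe set had a log2 ratio of 0.01. Of the ELAV and DMRT relatives 4 were measured, with a median of 0.17, and DMRT1, of testis development, was 2.31-fold higher (167 in CD90+ and 72.0 in CD90- cells). DMRT1 lies toward the telomere on 9p.

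**Figure D5:**
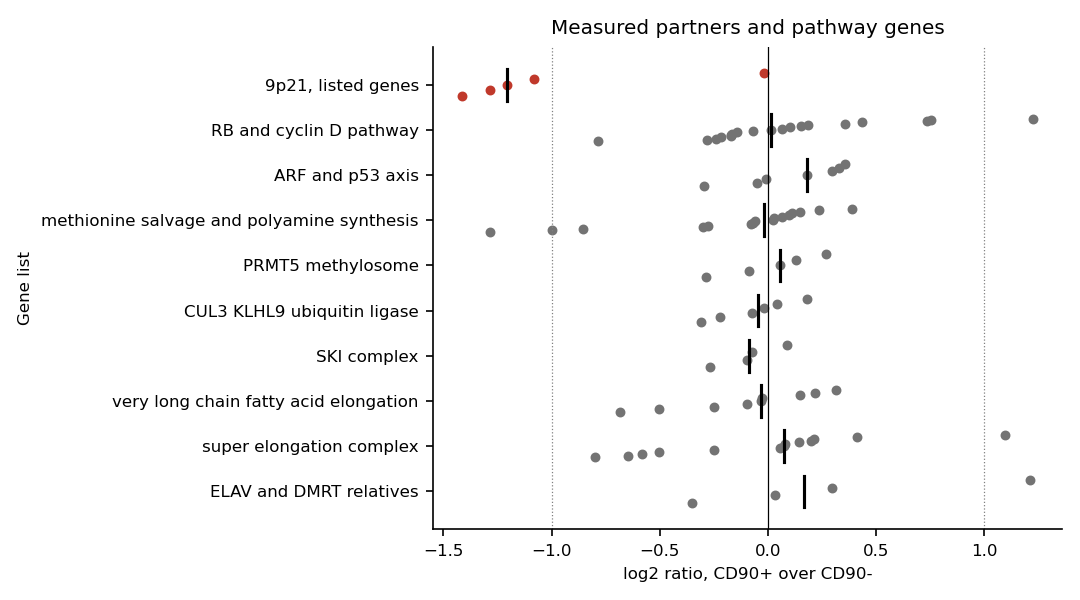
Log2 ratio, CD90+ over CD90-, of the measured genes of the 9p21 list and of the 9 partner and pathway lists (points) with the list's median as a bar and dotted lines at 2-fold. The listed 9p21 genes have a median of -1.20, and the medians of the partner and pathway lists run from -0.09 to 0.18. Cell type markers are not plotted.

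On the arrays as a whole marker genes followed the sort and the cell line label. THY1, which encodes CD90, was higher on all of its 3 probe sets, by 3.72-fold on the one that stood for it (293 in CD90+ and 78.9 in CD90- cells). All 8 squamous and basal epithelial markers analysed were measured and lay within 2-fold, with a summed signal of 105773 in CD90+ and 116342 in CD90- cells. Of 8 fibroblast markers 2 were measured, COL1A1 and PDGFRA, with a sum over the list of 2411 in CD90+ and 1476 in CD90- cells that is mostly COL1A1 (2125 in CD90+ and 1240.2 in CD90- cells), while COL1A2, COL3A1, DCN, LUM, PDGFRB and FAP were under the floor on both arrays. Of 4 leukocyte markers 0 were measured, and their sums of 43.1 in CD90+ and 109 in CD90- cells add values under the floor, which have no order. Of 5 endothelial markers 1 was measured, PECAM1, at 98.5 in CD90+ and 70.9 in CD90- cells, the latter under the floor. CDH5, VWF, KDR and TEK were under it on both arrays. The sums over the list, 205 in CD90+ and 107 in CD90- cells, add such values and give no direction. The part of these markers in the ratios of the 9p21 genes was not tested.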

How the data were processed

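Total RNA of CD90+ and CD90- cells of KYSE-140 was read on 1 array each. The authors' method was MAS5, per the submitters' processing notes, and it combines perfect-match and mismatch probes into 1 value per probe set. The deposited table holds these as linear signal intensities of 54675 probe sets. Their trimmed mean, taken from the 2nd to the 98th percentile, was 499.9 on both arrays, so the authors had scaled them alike. The number of arrays limits the precision, and subtraction of mismatch signal makes dim values noisy.

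Gene symbols came from the annotation of the platform and were updated by gene ID to RefSeq (GRCh38.p14). Of them 41091 had 1 symbol, of which 41037 matched RefSeq, 1801 had several and were left unnamed, and 11721 had none. RefSeq also gave the order of genes, and the arms of chromosome 9 were parted at its largest gap between gene starts. Signals under 71.6, the geometric mean of the arrays' medians without 62 control probe sets, were set to that floor before the log2 ratio was taken. The _x_at class represented a gene only where it had no other probe set.

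The text names all 10 listed genes, measured neighbours in the segment, the 3 nearest measured genes on each side, and in each pathway list members beyond 2-fold or else the 2 brightest. Other genes were named after their values were seen, as the text says where they appear. The listed genes and the pathway lists were chosen with earlier results of these data known. With 2 arrays no gene was named for likeness of pattern. The procedure was tested on simulated data. Alternatives were 3 settings of the floor, 3 normalizations, 3 choices of probe set and a filter on mean signal. Python 3.11.15, numpy 2.4.6, pandas 2.3.3, statsmodels 0.14.6 and matplotlib 3.10.9 were used.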

Additional observations from a re-analysis of the deposited data

How the results depend on the processing

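Under the 10 alternatives FOCAD, KLHL9 and MLLT3 were at least 2-fold lower in CD90+ cells in each, and MTAP in 9, the exception being its least changed probe set at a log2 ratio of -0.42. The 3 settings of the floor and the filter on mean signal could not change these 4 ratios. Signals of the probe sets that stood for these genes lay above each floor on both arrays. Only the normalizations and the choices of probe set could move them. By 1 of those choices FOCAD and MTAP kept the same probe set, and so the same value. With the least changed probe set of each gene CDKN2A counted as measured and the median over measured listed genes was -0.72. With a lower floor, set at the 25th percentile, 9 of the 10 genes were measured, 7 were at least 1.5-fold lower, where 4 were in the main setting, and 1, CDKN2B, was at least 2-fold higher, at a log2 ratio of at least 1.10. Of all measured genes at that floor 12% were at least 1.5-fold lower and 6.51% at least 2-fold higher, beside 6.76% and 2.47% in the main setting. There HACD4 (-0.98), ELAVL2 (-0.88) and DMRTA1 (-0.73) had log2 ratios that are bounds set by the floor, since their CD90+ signals lay under it. The median over the other genes of the segment, -0.84 over 4 genes, followed which of them were measured and how the floor bounded them. It was -1.42 when no floor was set, where IFNE (-1.74) and IFNA10 (-2.79) were not bounded. At the lower floor, where more of these genes were measured, it was -0.033. Without the _x_at, _s_at and _a_at classes only IFNE was left, at its bound of -1.66. The filter on mean signal left MIR31HG and IFNE, with a median of -1.38. The row of neighbours that holds MTAP had 4 or 5 genes in the alternatives that gave it a value. Its cut on brightness was held at 4 times the main floor throughout, so no floor setting could bring dimmer genes into it. By the least changed probe set MTAP was too dim to be in it. The median of 9p toward the telomere ran from 0.31 to 0.46. No value beyond 2-fold changed direction. The share of all measured genes at least 2-fold lower was 4.85% at the lower floor and 0.813% at a floor set at the 75th percentile. No paired analysis was possible because each fraction has 1 array and the labels carry no replicate numbers.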

Other observations

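The genes of outer 9p that were at least 2-fold higher in CD90+ cells are given here as values, and all were singled out after they were seen. KANK1, a regulator of actin at adhesions, read 1138 in CD90+ and 456 in CD90- cells. DMAC1, an assembly factor of mitochondrial complex I, read 11295 in CD90+ and 5571 in CD90- cells, 2.03-fold higher. The transcription factor GLIS3 read 228 in CD90+ and 49.6 in CD90- cells, at least 3.19-fold higher, and its antisense transcript GLIS3-AS1 read 1019 in CD90+ and 505 in CD90- cells, 2.02-fold higher. DMRT1 was the fifth. On the other side of the segment PHF24 read 137 in CD90+ and 380 in CD90- cells, 2.77-fold lower, and was with LINGO2 the other gene of inner 9p at least 2-fold lower.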
